A study of Mus musculus with 18 samples.

Results

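Mk5 silencing under palmitic acid (PA) was examined by comparing C2C12 myotubes transfected with siRNA against Mk5 (siMk5) with myotubes given non-targeting siRNA (siNtc), all in PA medium. The comparison rests on 6 of the 18 libraries of the series, 3 of each group, chosen by their labels, and on 21772 of 55414 counted genes, those whose counts over the 18 libraries add up to 10 or more. C2C12 is a mouse myoblast line that fuses into myotubes in low-serum medium. Confluent myoblasts were transfected with a pool of siRNAs, differentiated for 6 days and then given 0.5 mM PA bound to BSA, or BSA alone, for 16 h without serum. The other groups, each with 3 libraries, are siMk5 and siNtc in BSA and siRNA against Erk3 (siErk3) in PA, to which the result is compared, and siErk3 in BSA, which enters only the common fit and the plot of summed levels. All groups come from 1 cell line, and the labels do not state that libraries of the same group are from different cultures, so the p-values measure the spread between these samples, which may be technical.

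Mk5, encoded by Mapkapk5, is a serine/threonine kinase that binds the atypical MAP kinase Erk3, encoded by Mapk6. In type I interferon signaling, sensors of double-stranded RNA or cytosolic DNA induce interferons, which bind receptors coupled to the kinases Jak1 and Tyk2. These activate transcription factor complexes that hold Stat2 and Irf9 and bind interferon-stimulated response elements (ISRE) in the promoters of antiviral genes, among them genes of the sensors and of the transcription factors, so that the pathway raises its own components. Muscle cells are able to respond to interferons and carry many of these genes.

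In PA, interferon-stimulated genes were lower with siMk5 than with siNtc. The design holds no other siRNA against Mk5, so effects of the pool and of the loss of Mk5 cannot be told apart. Of the 21772 genes tested, 107 fell, which is 0.491% of them, and 12 rose, 0.0551%, together 119 genes or 0.547%, at an FDR below 0.05 and a fold change above 1.3. The FDR is the adjusted p-value of edgeR's quasi-likelihood test over all genes tested. Of the 107 genes that fell, 94 (87.9%) were on 11 lists of interferon-stimulated genes, and these 94 were 40.9% of the 230 tested genes of those lists. The number of listed genes that rose was 0 by edgeR, with 1 above 0 at an unadjusted p below 0.05, and 0 by DESeq2, with 0. The median log2 fold change was -0.50 over the 230 genes and 0.00 over all genes tested, and 213 of the 230 were below 0, a direction taken by 49.1% of all genes. The lists and their members were chosen with earlier results of these data known, so these shares and medians are not independent of that choice. The 94 lowered genes fell by a median of 1.76-fold, 24 of them by more than 2-fold, and the smallest change was 1.31-fold. In RNA from whole cultures, fewer cells of a type and less RNA per cell cannot be told apart.

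**Figure D1:**
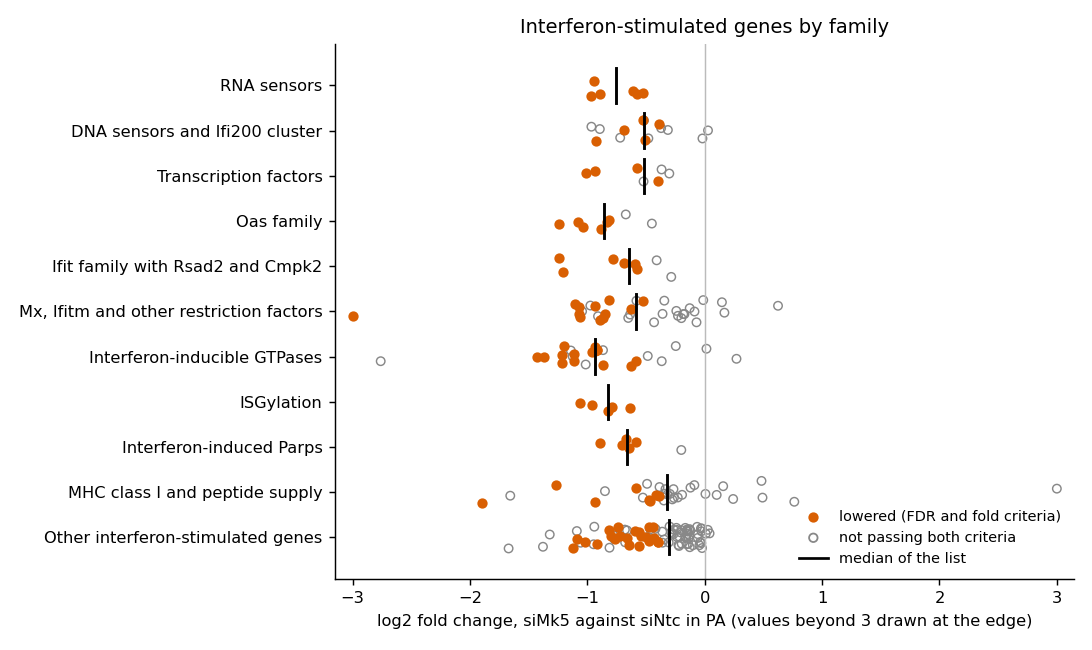
Log2 fold change of siMk5 against siNtc in PA (horizontal axis) for every tested gene of the 11 lists of interferon-stimulated genes (rows). Filled points are genes that fell, the short line is the median of a list, and points beyond 3 are drawn at the edge; in every list the median lies below 0, between -0.93 for the GTPases and -0.31 for the other interferon-stimulated genes.

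Promoter sequences are shown for genes that the results turn on, namely 3 lowered interferon-stimulated genes, the lowered chemokine gene Ccl2 and the raised connexin gene Gja5. Each is the stretch of 250 bases before the annotated start (GENCODE M39, GRCm39), printed 5′ to 3′ on the strand of the gene. Capitals mark matches to GAAANNGAAA, the core of an ISRE, on either strand, and in Ccl2 a match to TTCNNNGAA, the gamma-activated sequence (GAS) of interferon gamma signaling.
Isg15, ubiquitin-like modifier (GRCm39 chr4:156285304-156285553, minus strand): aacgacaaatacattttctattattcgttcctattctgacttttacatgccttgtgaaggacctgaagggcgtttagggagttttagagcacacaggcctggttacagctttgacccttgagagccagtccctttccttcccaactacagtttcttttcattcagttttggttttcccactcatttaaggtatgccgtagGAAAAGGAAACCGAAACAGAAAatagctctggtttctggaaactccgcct
Ifit3, antiviral RNA-binding protein (chr19:34560649-34560898, plus strand): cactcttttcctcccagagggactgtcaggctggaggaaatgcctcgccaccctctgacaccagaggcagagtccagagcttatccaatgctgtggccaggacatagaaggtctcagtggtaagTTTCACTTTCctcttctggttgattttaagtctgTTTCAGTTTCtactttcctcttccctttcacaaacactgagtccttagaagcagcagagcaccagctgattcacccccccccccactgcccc
Irgm1, immunity-related GTPase (chr11:48762248-48762497, minus strand): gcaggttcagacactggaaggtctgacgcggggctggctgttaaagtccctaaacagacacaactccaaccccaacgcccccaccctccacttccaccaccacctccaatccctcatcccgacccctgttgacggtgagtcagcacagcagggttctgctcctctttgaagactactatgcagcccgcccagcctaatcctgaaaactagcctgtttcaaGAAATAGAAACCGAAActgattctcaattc
Ccl2, monocyte chemokine (chr11:81926147-81926396, plus strand): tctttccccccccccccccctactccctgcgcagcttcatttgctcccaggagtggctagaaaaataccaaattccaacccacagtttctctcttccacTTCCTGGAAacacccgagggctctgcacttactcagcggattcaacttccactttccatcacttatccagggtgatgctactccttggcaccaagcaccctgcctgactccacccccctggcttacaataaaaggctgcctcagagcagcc
Gja5, gap junction connexin (chr3:96939461-96939710, plus strand): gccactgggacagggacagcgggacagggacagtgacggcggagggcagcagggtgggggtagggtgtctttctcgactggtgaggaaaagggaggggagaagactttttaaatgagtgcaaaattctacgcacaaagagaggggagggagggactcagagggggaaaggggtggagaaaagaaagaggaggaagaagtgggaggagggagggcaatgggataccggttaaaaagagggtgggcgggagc
The Isg15 window held 3 overlapping ISRE matches that begin 50, 44 and 38 bases before the start. Ifit3 held 2 separate matches and Irgm1 2 overlapping ones, whereas the Gja5 window held neither motif.

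In windows from 250 bases before to 50 bases after the start, searched on both strands, the ISRE letters were found in 48 of the 94 lowered interferon-stimulated genes (51.1%) and in 31 of the 136 listed genes that did not fall (22.8%). They were in 813 of the 21600 tested genes with a window (3.76%). Of the 13 other lowered genes, 1 (7.69%) held the letters, Plekha4, where they begin 38 bases after the start, and of the 12 raised genes 0 did. Among the lowered members the letters were in all 5 of the Ifi200 list and in 11 of the 15 GTPases, but in 1 of 8 of the MHC class I list and in 0 of the 5 Parp genes. The GAS letters were in 19 of the 94 (20.2%), in 12 of the 136 (8.82%) and in 7.53% of all windows. A kappaB core, GGGANNTTCC, was in 4 of the 94 (4.26%), in 4 of the 136 (2.94%) and in 1.35% of all windows. Matching letters are a description of the sequence. The lists were drawn up from genes known to respond to interferon, with earlier results of these data known.

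**Figure D2:**
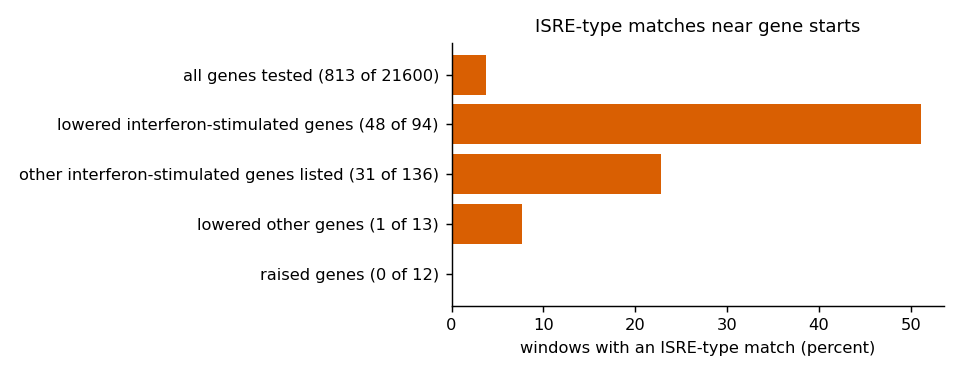
Percent of promoter windows with a match to the ISRE letters (horizontal axis, from 0) in the lowered interferon-stimulated genes, the other listed interferon-stimulated genes, the other lowered genes, the raised genes and all genes tested. The bars stand at 51.1%, 22.8%, 7.69%, 0 and 3.76%, over 94, 136, 13, 12 and 21600 genes.

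The silenced gene itself was measured at a low level. Mapkapk5 (chr5:121663101-121683968, minus strand) stood at 2.52, 3.92 and 3.28 CPM, counts per 1e6 of the scaled library size, in the siNtc PA libraries and at 2.43, 2.33 and 2.17 CPM in the siMk5 PA libraries. All 3 siMk5 PA libraries were below all 3 controls, by a narrow margin. The log2 fold change was -0.49 (SE 0.18, FDR 0.469), and in BSA it was -0.61 (FDR 0.469). The exact permutation test, two-sided, gave p = 0.1 in each medium, the smallest p that 3 against 3 libraries allow. Gm42878, an annotated gene on the same strand, covers most of the locus (chr5:121656676-121683545), and read pairs over exons of both were not counted for either, so the remaining counts understate Mapkapk5 by an unknown amount. Mapk6, encoding the Erk3 partner, was at 215.4, 236.4 and 243.6 CPM in siNtc and at 235.4, 233.2 and 214.1 CPM in siMk5, with overlapping groups and a log2 fold change of -0.03 (FDR 0.983). All values here are of RNA. The paper checked the silencing by Western blot of the proteins and reports less Erk3 protein after Mk5 silencing.

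The 18 libraries held 13041979 to 28496727 counts, and the 6 compared here 19782395 to 22636931. No pair of libraries in a group differed by as little as sampling noise. The 18S rRNA gene took 5.32 to 6.43% of the counts in siNtc PA and 4.34, 1.71 and 6.69% in siMk5 PA replicates 1 to 3, so that replicate 2 stood lowest. Without that library 85 genes passed in place of 119, 72 of them lowered interferon-stimulated genes, and the part of the 18S share in this was not tested. The myotube markers were abundant with a summed level of 8862 to 9040 CPM in siNtc PA and 9112 to 9638 CPM in siMk5 PA. Of the 8 myotube markers 0 passed by edgeR and by DESeq2, with 3 at an unadjusted p below 0.05 by each. The fibroblast marker sums overlapped, at 587.1 to 777.8 and 440.5 to 627 CPM. The satellite cell markers summed to 356.1, 365 and 383.5 CPM in siNtc PA and to 336.5, 329.4 and 315.6 CPM in siMk5 PA, without overlap. Of those 5 markers 4 had a log2 fold change below 0 and 0 passed by edgeR or by DESeq2, with 1 at an unadjusted p below 0.05 by each. Vcam1, named after its values were seen and also on the list of NF-kappaB and chemokines, passed the FDR alone (log2 fold change -0.30, FDR 0.000119). The part of these markers in the results was not tested. Macrophage markers were close to absent, Adgre1 with 0 counts in all libraries and the 4 tested members at 1.72 to 2.52 CPM together in siNtc PA and 1.81 to 2.66 CPM in siMk5 PA. Endothelial markers summed to at most 1.16 and 1.39 CPM, and of the adipocyte markers Plin1 and Cidec were at 0.

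All 6 RNA sensors of the list fell. Eif2ak2 encodes Pkr, which halts translation on binding double-stranded RNA, and stood at 140.9, 120.6 and 130.8 CPM in siNtc PA against 93.2, 79.9 and 89.6 CPM in siMk5 PA. The groups did not overlap, and the log2 fold change was -0.58 (SE 0.06, FDR 5.01e-07). Rigi, the helicase that senses RNA with a 5′ triphosphate, fell from 113.5, 97.8 and 101.8 to 76.8, 60.1 and 67.7 CPM (log2 fold change -0.61, FDR 1.28e-05). Zbp1, a sensor of Z-form nucleic acid, changed by -0.94 on the log2 scale, the endosomal receptor Tlr3 by -0.89, and Dhx58, a regulator of the RNA helicase sensors, by -0.97. Ifih1, encoding the long-RNA sensor Mda5 and singled out after its values were seen, was the only lowered interferon-stimulated gene whose groups overlapped. It stood at 67.2, 78.9 and 91.4 CPM in siNtc PA and at 68.9, 47.4 and 47.8 CPM in siMk5 PA (log2 fold change -0.53, FDR 0.0145), and its FDR rose to 0.213 without siMk5 PA replicate 2, 0.179 without replicate 3, 0.0628 without siNtc PA replicate 2 and 0.166 without replicate 3.

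Among the DNA sensors and the Ifi200 cluster, genes of nucleic acid-binding proteins side by side on chromosome 1, 5 of 14 fell and the median was -0.51. Ifi203 was at 172.5, 163.0 and 193.1 CPM in siNtc PA and at 139.1, 110.9 and 120.6 CPM in siMk5 PA (log2 fold change -0.51, FDR 1.31e-05). Mndal, Ifi207, Ifi211 and Ifi205 fell by 0.53, 0.69, 0.39 and 0.93 on the log2 scale. A further 2 members passed the FDR but not the fold criterion, as did 0.23% of all genes, and the members that did not fall ranged from -0.97 to 0.03. These genes are closely related in sequence, so reads may be shared among them.

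Of the 12 adaptors and kinases of sensing 0 passed by edgeR and by DESeq2, with 1 at an unadjusted p below 0.05 by each. Their log2 fold changes lay between -0.19 for Myd88 and 0.11 for Irf3, with Mavs, Sting1, Ticam1, Tbk1, Ikbke, Traf3 and Traf6 between them. Of 21 interferon genes only Ifnb1 had enough counts to be tested. It was at 0.0450, 0.0912 and 0.202 CPM in siNtc PA and at 0.0449, 0.0466 and 0.103 CPM in siMk5 PA, a few counts per library, and a difference was not detectable at this depth (log2 fold change -0.74, SE 0.90, FDR 0.959). Of the 18 receptors, Jak kinases and inhibitors 0 passed by edgeR and by DESeq2, with 4 and 3 at an unadjusted p below 0.05 and a range of -0.48 to 0.12. The interval of the log2 fold change was -0.15 to 0.04 for the receptor gene Ifnar1, -0.31 to -0.03 for Ifnar2, -0.16 to 0.02 for Jak1 and -0.10 to 0.15 for Tyk2 (95%, not adjusted). The feedback inhibitor Socs1 had a log2 fold change of -0.28 (FDR 0.588).

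Of the 7 transcription factor genes tested 4 fell. Stat2, a factor activated by the receptor kinases, fell from 173.6, 155.8 and 169.3 to 123.2, 98.9 and 112.2 CPM (log2 fold change -0.58, FDR 7.94e-07). Irf7, the factor that amplifies interferon induction, fell from 35.1, 31.6 and 31.8 to 19.3, 13.1 and 19.3 CPM (-0.93, FDR 1.31e-05). Irf9, the DNA-binding partner of Stat2, had a log2 fold change of -0.40 (FDR 0.0121), which reached an FDR of 0.181 without siMk5 PA replicate 2, 0.078 without siNtc PA replicate 1 and 0.0508 without siNtc PA replicate 3. Irf1 passed the FDR but not the fold criterion (log2 fold change -0.30, FDR 0.000476), and Irf5 (-0.37, FDR 0.878) and Batf2 (-0.52, FDR 0.951) passed neither.

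The Ifit list, whose proteins bind foreign RNA and block its translation, had the summed level 659.5, 547 and 651.5 CPM in siNtc PA and 397.1, 302.4 and 312.9 CPM in siMk5 PA, and 6 of its 8 genes fell. Ifit3, whose promoter is printed above, was at 218.1, 163.4 and 209.8 CPM in siNtc PA and at 98.3, 69.9 and 81.9 CPM in siMk5 PA (log2 fold change -1.24, SE 0.14, FDR 6.94e-07). Its near-identical neighbor Ifit3b changed by -1.21 (FDR 1.12e-07), and reads of this pair may be shared. Ifit2 fell by 0.59 on the log2 scale and Cmpk2, a nucleotide kinase next to the antiviral enzyme gene Rsad2, by 0.78. Ifit1 fell from 242.4, 215.5 and 247.4 to 174.2, 134.4 and 127.9 CPM (log2 fold change -0.69, FDR 0.000548), a call that DESeq2 did not make (FDR 0.374).

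The Oas genes encode enzymes that make 2-5A, the activator of RNase L, and 6 of 8 fell, with a median of -0.85. Oas3 was at 8.55, 7.52 and 9.55 CPM in siNtc PA and at 3.51, 2.94 and 4.44 CPM in siMk5 PA (log2 fold change -1.24, FDR 4.37e-06). Oasl2 fell from 133.4, 119.8 and 124.3 to 79.4, 58.3 and 74.7 CPM (-0.83, FDR 2.98e-06). Both groups were apart in these genes. Oas1a and Oas1g fell by 1.08 and 1.04 on the log2 scale, but Oas1g did not pass without siMk5 PA replicate 2 (FDR 0.0679), and Oas2 (-0.88) did not pass by DESeq2 (FDR 0.166).

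In the list of ISGylation, the attachment of the ubiquitin-like protein Isg15 to other proteins, all 5 genes fell. Isg15 itself stood at 99.6, 88.2 and 103.7 CPM in siNtc PA and at 60.3, 40.02 and 49.3 CPM in siMk5 PA (log2 fold change -0.96, SE 0.11, FDR 8.52e-07). Usp18, the protease that removes Isg15 and also restrains the interferon receptor, fell from 45.1, 38.5 and 50.9 to 24.2, 17.7 and 22.4 CPM (-1.06, FDR 3.72e-07). The enzyme genes fell by 0.82 for Herc6, 0.64 for Ube2l6 and 0.79 for Uba7 on the log2 scale. Without siMk5 PA replicate 2 the FDR was 0.0997 for Ube2l6 and 0.196 for Uba7, and without siNtc PA replicate 1 it was 0.161 for Uba7.

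The interferon-inducible GTPases, which attack the vacuoles of intracellular pathogens, had the lowest median of the 11 lists (-0.93), and 15 of 25 fell. Gbp2 was at 14.98, 10.8 and 13.3 CPM in siNtc PA and at 6.02, 5.73 and 5.01 CPM in siMk5 PA (log2 fold change -1.22, FDR 2.05e-07). Irgm1 fell from 143.4, 126.5 and 137.6 to 96.3, 84.8 and 90.3 CPM (-0.59, FDR 1.13e-07). The changes were -1.11 for Gbp3, -1.20 for Iigp1 and -0.92 for Irgm2. The 10 members that did not fall ranged from -2.76 to 0.27. Near-identical Gbp genes share reads, and Irgm2 and Igtp overlap on the same strand, so their counts are uncertain.

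Of the 33 genes of Mx proteins, Ifitm proteins and other restriction factors, 12 fell. Bst2, the tether that holds budding virions at the cell surface, was at 73.6, 70.6 and 77.6 CPM in siNtc PA and at 39.5, 34.5 and 45.9 CPM in siMk5 PA (log2 fold change -0.89, FDR 2.98e-06). Slfn9, Mx2, Mx1 and Trim30a fell by 0.86, 0.93, 1.07 and 1.07 on the log2 scale, and Mx2 did not pass by DESeq2 (FDR 0.0825). Trim30c, singled out after its values were seen, had the largest fitted change, but it rested on 1 library. It was at 13.8 CPM in siNtc PA replicate 1 and at most at 0.253 CPM in the other 5 libraries, and without that replicate its log2 fold change went from -6.13 (FDR 0.00923) to -1.52 (FDR 0.801).

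Of the 6 Parp-list genes, ADP-ribosyltransferases and the partner of Parp9, Dtx3l, 5 fell. Parp14 was at 96.2, 80.5 and 95.5 CPM in siNtc PA and at 56.2, 41.7 and 48.7 CPM in siMk5 PA (log2 fold change -0.89, SE 0.08, FDR 1.12e-07). Dtx3l, Parp9, Parp12 and Parp10 fell by 0.71, 0.67, 0.65 and 0.58 on the log2 scale.

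Of the 33 genes of MHC class I and its peptide supply 8 fell, and the median was -0.32. Tap1, a subunit of the peptide transporter, fell from 16.8, 14.5 and 17.3 to 9.53, 7.36 and 8.51 CPM (log2 fold change -0.93, FDR 5.26e-06). Psmb8, a catalytic subunit of the immunoproteasome, fell by 1.26, the transporter subunit Tap2 by 0.48, the loading factor Tapbp by 0.42 and the class I gene H2-T22 by 0.39 on the log2 scale. Tapbp missed the fold criterion without siMk5 PA replicate 2 (-0.38), and H2-T22 fell in 3 of the 6 fits that leave out 1 library. A further 4 genes of the list passed the FDR alone.

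The remaining list of 85 interferon-stimulated genes had 22 that fell. The level of Rnf213, a large E3 ubiquitin ligase, was 812, 720.9 and 851.9 CPM in siNtc PA and 546.8, 413.4 and 472.3 CPM in siMk5 PA (log2 fold change -0.74, FDR 2.05e-07). Samd9l, Znfx1, Tor3a and Phf11d fell by 0.65, 0.50, 0.44 and 1.02 on the log2 scale. Cxcl10, a T-cell chemokine named after its values were seen, fell from 86.3, 77.8 and 92.9 to 59.8, 44.1 and 41.8 CPM (-0.81, FDR 1.86e-06).

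**Figure D3:**
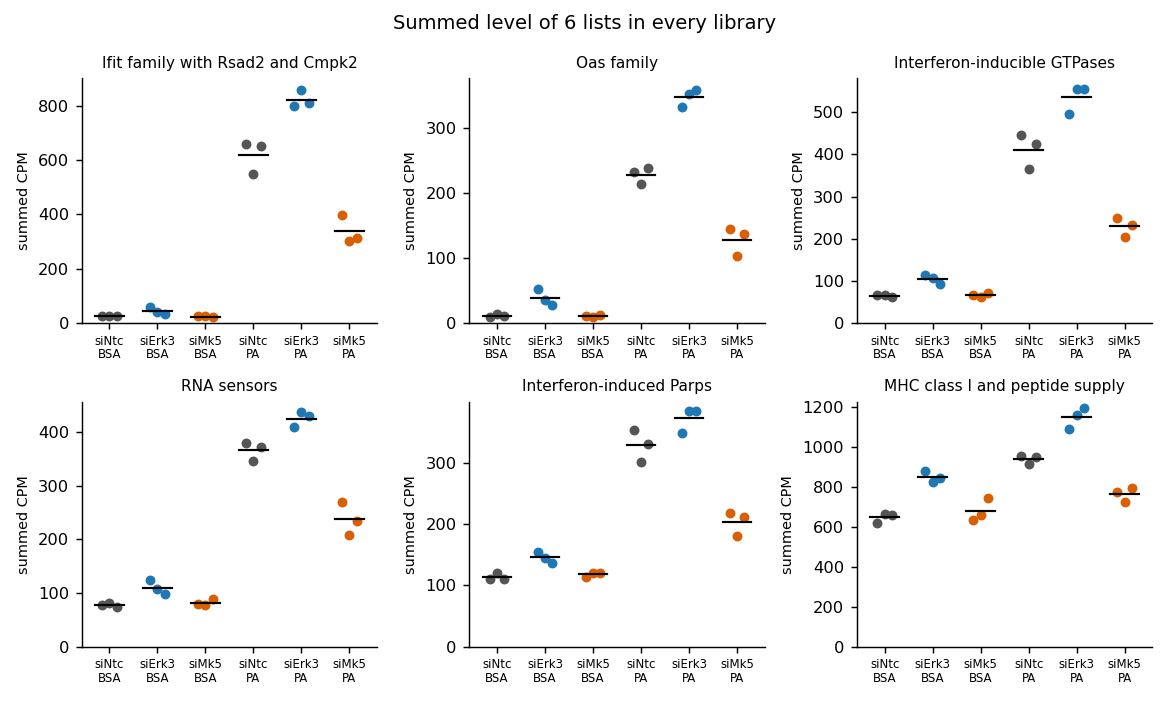
Summed CPM (vertical axes) of 6 lists of interferon-stimulated genes in each of the 18 libraries, by siRNA and medium (horizontal axis). In PA the siMk5 libraries lie below the siNtc libraries in every panel, for the Ifit list at 302.4 to 397.1 against 547 to 659.5 CPM, while in BSA the siMk5 and siNtc libraries overlap in every panel and the siErk3 libraries lie above both.

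The same silencing had no detectable effect on these genes in BSA. Summed over the 11 lists, the level was 9876, 9110 and 9939 CPM in siNtc PA and 7417, 6420 and 7014 CPM in siMk5 PA, but 3429 to 3610 CPM in siNtc BSA and 3433 to 3774 CPM in siMk5 BSA. In BSA, where 0.0643% of all genes changed by siMk5, 0 of the 230 listed genes passed by edgeR, with 7 at an unadjusted p below 0.05, and 0 passed by DESeq2, with 3 at an unadjusted p below 0.05. The median of the 94 genes was 0.01 in BSA and -0.81 in PA, but they were chosen by their fall in PA, which lowers the PA median. Over all 230 listed genes the median was 0 in BSA and -0.50 in PA. Many of them have few counts in BSA, such as Ifit3 with at most 2.29 CPM, which widens the error there. The 18S rRNA gene took 2.56, 7.17 and 5.64% of the counts in siNtc BSA and 10.78, 12.87 and 8.39% in siMk5 BSA, without overlap. The siNtc BSA replicate 1 library was the shallowest of the 18, with 13041979 counts. The part of the 18S share and of depth in the BSA result and in the comparison of the media was not tested.

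The difference between the media was tested by the interaction term. It passed for 46 of all genes (0.211%), 31 of them listed interferon-stimulated genes, all below 0, as for 0.161% of all genes, and 30 of them among the 94. Without 1 library the count was 24 (siMk5 BSA replicate 3), 27 (siNtc BSA replicate 3), 28 (siNtc BSA replicate 1) and 28 (siMk5 PA replicate 2), and it was 31 to 67 without each of the others. Parp12 had the smallest FDR, with a log2 fold change of -0.65 in PA, 0.11 in BSA and an interaction of -0.76 (FDR 0.000191). Gbp2 had -1.22, 0.19 and -1.41 (FDR 0.000644). For Ifit3 (-1.05, FDR 0.665) and Isg15 (-0.97, FDR 0.345), nearly silent in BSA, the interaction did not pass.

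**Figure D4:**
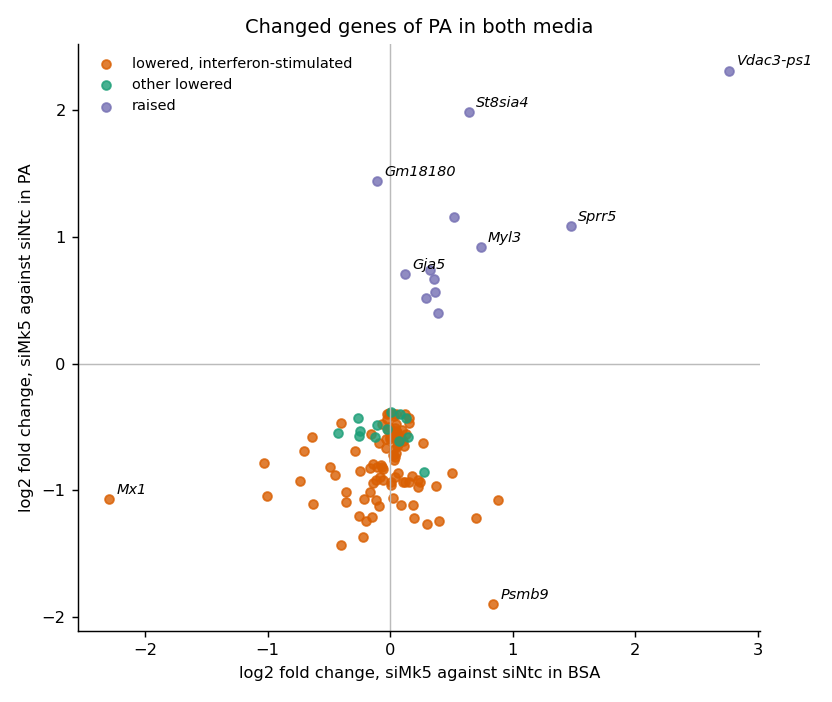
Log2 fold change of siMk5 against siNtc in BSA (horizontal axis) and in PA (vertical axis) for the genes changed in PA, without Trim30c, with lowered interferon-stimulated, other lowered and raised genes in different colors. The interferon-stimulated genes lie below 0 on the PA axis, by which they were chosen, and on both sides of 0 on the BSA axis. Their median was -0.81 in PA and 0.01 in BSA.

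PA raised most of the 94 genes in both siRNA groups. PA against BSA passed upward for 90 of the 94 in siNtc, where 15.5% of all genes rose, with a median log2 fold change of 2.77. In siMk5 it passed for 79, where 15.1% of all genes rose, with a median of 1.93. Isg15 rose by 5.10 in siNtc and 4.13 in siMk5 on the log2 scale, and Gbp2 had 1.86 and 0.46. The siNtc PA libraries enter both the PA effect and the siMk5 effect, so that these are not independent measurements. Tapbp and Tap2 fell in siMk5 PA although PA moved them by -0.04 and 0.28 in siNtc.

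In siErk3 PA myotubes the same genes stood higher than in siMk5 PA. Of the 94 genes 93 were lower in siMk5 PA than in siErk3 PA, where 0.854% of all genes were lower, and 130 of the 230 listed genes were. The 94 were picked for being low in the same siMk5 PA libraries, so the count of 93 follows in part from that choice. Isg15 was at 121.0, 125.4 and 124.4 CPM in siErk3 PA, and the log2 difference of siMk5 from siErk3 was -1.31 (FDR 3.22e-10). Against the shared siNtc PA libraries, siErk3 had a higher level of 31 of the 94 genes, with 0.432% of all genes higher. Cmpk2 was at 45.1, 51.9 and 46.7 CPM in siErk3 PA, with a log2 fold change of 1.35 for siErk3 and -0.78 for siMk5 against siNtc.

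Of the 25 changed genes on no interferon-stimulated list, 13 fell. The share of all genes that fell was 0.491%, the interferon-stimulated ones included. In all 13 the PA groups did not overlap, but they were called from the same libraries, so this adds no support of its own. Without siMk5 PA replicate 2 only 6 genes of this kind fell, and Ccl2, Ccl7, Fbln1, Gm43197, Myh4, Prg4 and Xirp2 were those lost.

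The 4 lowered genes with unnamed products lie within 32.903 kb of lowered interferon-stimulated genes. AW011738, a long noncoding RNA (chr4:156287727-156295020, plus strand) 2474 bases from Isg15 on the other strand, was at 10.9, 9.62 and 9.80 CPM in siNtc PA and at 5.89, 5.45 and 5.37 CPM in siMk5 PA (log2 fold change -0.86, FDR 1.54e-05, interaction -1.14, FDR 0.0167). Gm6548, a processed pseudogene (chr17:79158221-79159385, minus strand) 608 bases downstream of Eif2ak2 on the same strand, fell from 32.6, 26.4 and 29.5 to 20.5, 17.6 and 19.9 CPM (-0.61, FDR 2.89e-05). Whether its counts are separate from those of Eif2ak2 was not tested. Gm20559, a long noncoding RNA (chr6:3333194-3346128), and Gm43197, an unreviewed transcript inside its span (chr6:3336772-3339354), lie 26.129 and 32.903 kb from Samd9l on its strand and changed by -0.53 and -0.48. The last pair overlaps on the same strand, so these are not separate measurements.

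The lowered chemokine genes Ccl2 and Ccl7, which attract monocytes and lie 8.259 kb apart on the same strand, changed alike. Ccl2 was at 35.1, 39.3 and 45.0 CPM in siNtc PA and at 33.3, 24.7 and 21.4 CPM in siMk5 PA (log2 fold change -0.58, SE 0.12, FDR 0.00621). Its siMk5 replicate 1 came close to the lowest control, and the FDR was 0.0825 without siMk5 PA replicate 2, 0.105 without replicate 3, 0.0692 without siNtc PA replicate 3 and 0.156 by DESeq2. Ccl7 was at 27.6, 22.8 and 29.1 CPM in siNtc PA and at 20.7, 14.2 and 18.1 CPM in siMk5 PA (-0.58, FDR 0.00231, and 0.0693 without siMk5 PA replicate 2). In the list of 26 genes of NF-kappaB and chemokines, 2 fell, 1 rose and 2 passed the FDR alone, and the median was -0.11.

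Lipg, encoding endothelial lipase, was at 50.4, 45.4 and 49.7 CPM in siNtc PA and at 37.3, 35.5 and 35.2 CPM in siMk5 PA. The log2 fold change was -0.43 (SE 0.06, FDR 3.69e-05) in PA and 0.13 (FDR 0.763) in BSA, and the interaction was -0.56 (FDR 0.00339). Plekha4, a phosphoinositide-binding adaptor gene, fell from 15.03, 15.2 and 15.97 to 12, 10.5 and 9.80 CPM (-0.51, FDR 0.000305).

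Myh4, the fast glycolytic myosin heavy chain IIb, was at 216.8, 232.5 and 250.02 CPM in siNtc PA and at 178.6, 161.0 and 180.3 CPM in siMk5 PA (log2 fold change -0.43, FDR 0.000258). It missed the fold criterion without siMk5 PA replicate 2 (log2 fold change -0.377) and without siNtc PA replicate 3 (-0.375). In BSA it had -0.26 (FDR 0.176), and the interaction was -0.17 (FDR 0.707). It was the only lowered gene of the 24 of the glycolytic fiber list, whose median was 0.01. Xirp2, an actin-binding protein of the muscle attachment sites, had -0.57 (FDR 0.0486) and passed in none of the 6 fits that leave out 1 library (FDR 0.0571 to 0.209), nor by DESeq2 (FDR 0.439). The genes of the extracellular matrix protein Fbln1 (-0.39, FDR 0.0211), the lubricant proteoglycan Prg4 (-0.38, FDR 0.0193) and the integrin subunit Itga9 (-0.55, FDR 0.0238) fell, but were called in 1, 2 and 2 of those 6 fits. The fibroblast marker sum, 587.1 to 777.8 CPM in siNtc PA and 440.5 to 627 CPM in siMk5 PA, lay in the same direction with overlap, and its part in these genes was not tested.

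Of the 13 other lowered genes 9 were also lower in siMk5 PA than in siErk3 PA, and PA raised 10 of the 13 in siNtc. The 13 were picked by the siMk5 PA and siNtc PA libraries that enter these comparisons, so neither count is independent of that choice. Ccl2 had a PA effect of 3.38 on the log2 scale and Gm6548 of 1.71, whereas Myh4 had -0.73, Fbln1 -0.70 and Itga9 -1.07.

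**Figure D5:**
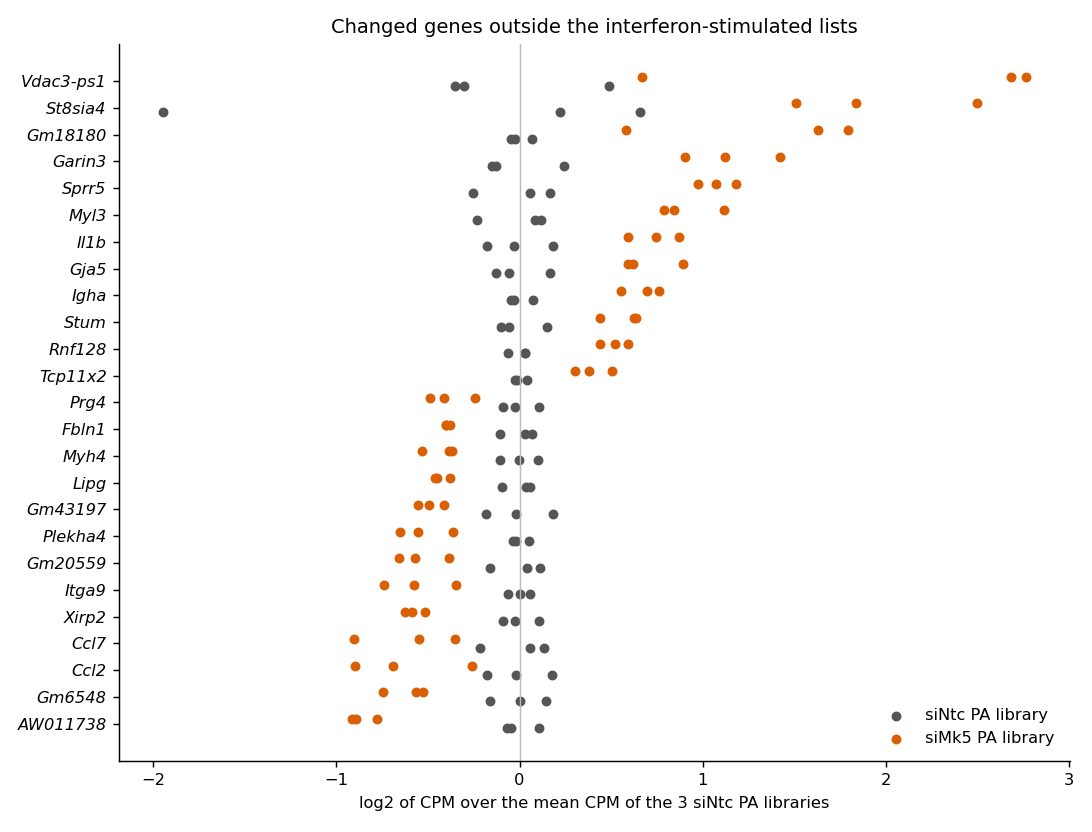
Log2 ratio of the CPM in each PA library to the mean of the siNtc PA libraries (horizontal axis) for the 25 changed genes on no interferon-stimulated list (rows), with a mark for each siNtc and siMk5 library. The siNtc and siMk5 marks are apart in every row, for genes that were called from these same libraries. For Vdac3-ps1 and Gm18180, siMk5 replicate 3 lies nearer to the controls than the other siMk5 replicates.

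The 12 raised genes, none of them on an interferon-stimulated list, had log2 fold changes from 0.40 to 2.31. Without siMk5 PA replicate 2 only 7 such genes rose, and Gm18180, Rnf128, St8sia4, Stum and Tcp11x2 were those lost. Gja5, encoding the gap junction protein connexin 40, had the smallest FDR. It was at 36.9, 31.6 and 30.1 CPM in siNtc PA and at 49.7, 50.6 and 61.0 CPM in siMk5 PA (log2 fold change 0.70, SE 0.08, FDR 1.35e-06). All siMk5 libraries were above all controls, and all were below the 85.7 to 89.2 CPM of siNtc BSA. In BSA the change was 0.12 (FDR 0.782) and the interaction was 0.58 (FDR 0.00993). PA changed Gja5 by -1.41 in siNtc and by -0.83 in siMk5. Gja5 was raised in siErk3 PA too (0.68, FDR 4.18e-06), with a difference of siMk5 from siErk3 of 0.02 (95% interval -0.14 to 0.18).

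Igha, the constant region of immunoglobulin A, was at 5.399, 5.47 and 5.86 CPM in siNtc PA and at 8.18, 9.04 and 9.44 CPM in siMk5 PA (log2 fold change 0.67, FDR 0.000119). Il1b, the cytokine interleukin-1 beta, was at 4.32, 4.79 and 5.56 CPM in siNtc PA and at 8.18, 7.36 and 8.93 CPM in siMk5 PA (0.74, SE 0.13, FDR 0.00134). Neither gene's groups overlapped, and Il1b moved opposite to Ccl2 and Ccl7 of the same list. Sprr5, of the small proline-rich family of epithelia, rose from 2.61, 3.24 and 3.49 to 7.06, 6.10 and 6.55 CPM (1.08, FDR 0.000559), with 1.47 in BSA (FDR 0.095).

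Rnf128, an E3 ubiquitin ligase gene, had 0.52 (FDR 0.00484). Myl3, the slow ventricular myosin light chain, rose from 1.21, 1.55 and 1.52 to 2.56, 2.47 and 3.10 CPM (0.92, FDR 0.0145). Its FDR was 0.130 without siMk5 PA replicate 3 and 0.133 without siNtc PA replicate 1. It was the only called gene of the 20 of the oxidative fiber list, in which 2 more passed the FDR alone. In that list 9 genes were at an unadjusted p below 0.05 by edgeR, 7 up and 2 down. St8sia4, a polysialyltransferase gene, had 1.98 (FDR 0.0145) at under 1 CPM in every library. Garin3 (1.16, FDR 0.0302), Stum (0.57, FDR 0.0411) and Tcp11x2 (0.40, FDR 0.0408) were called in 1, 2 and 1 of the 6 fits that leave out 1 library.

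Both raised pseudogenes had 1 siMk5 library near the controls. Vdac3-ps1 was at 0.585, 1.05 and 0.606 CPM in siNtc PA and at 5.08, 4.80 and 1.19 CPM in siMk5 PA (log2 fold change 2.31, FDR 8.8e-05). It was also raised in siMk5 BSA (2.77, FDR 0.00013), whereas its parent Vdac3 had 0.02 (FDR 0.988) in PA. Gm18180 was at 1.17, 1.19 and 1.26 CPM in siNtc PA and at 4.18, 3.73 and 1.81 CPM in siMk5 PA (1.44, FDR 0.0272), with -0.10 (FDR 0.98) in BSA. Its FDR was 0.212 without siMk5 PA replicate 1 and 0.183 without replicate 2. Without siNtc PA replicates 1, 2 and 3 in turn it was 0.108, 0.135 and 0.0715. Vdac3-ps1 and Gm18180 were the only raised genes that also stood higher in siMk5 PA than in siErk3 PA. The log2 differences were 1.97 and 1.28, in a comparison where 0.175% of all genes were higher. The raised genes were picked for being high in the same siMk5 PA libraries. For St8sia4 (-0.05, interval -0.70 to 0.60), Igha (0.09, -0.11 to 0.28) and Stum (0.03, -0.23 to 0.29) the difference between the silencings did not pass.

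Of 23 lists outside the interferon-stimulated ones, 20 with 305 tested genes had 0 called by edgeR, with 44 at an unadjusted p below 0.05, and 0 by DESeq2, with 40. These 20 lists were set apart because no member was called, so the 0 by edgeR was fixed by that choice. Over all genes tested 0.547% were called. An unadjusted p below 0.05 by edgeR was reached by 14.4% of the 305 genes and by 6.79% of all genes. By DESeq2 it was reached by 4.64% of all genes. The lists include fatty acid response, lipid synthesis, the respiratory chain, the integrated stress and unfolded protein response, antioxidant genes, phosphoinositide metabolism, the cell cycle and the MAP kinases. The 29 stress and unfolded protein response genes, all raised by PA in siNtc and in siMk5, had a median siMk5 effect of -0.03 in PA. The 28 respiratory chain genes had a median of 0.01 and the 31 fatty acid response genes of 0.02. The 24 extracellular matrix and YAP target genes had a median of -0.12, with 20 below 0. Of these 8 were at an unadjusted p below 0.05 by edgeR, 7 down and 1 up. The 24 myogenic differentiation genes had 7 at that p, 5 up and 2 down. In each of these 2 lists 2 genes passed the FDR alone. The 19 cell cycle genes had a median of -0.05, with 16 below 0.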

How the data were processed

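RNA of 18 C2C12 libraries, 6 groups of 3, was profiled by stranded, poly(A)-selected sequencing. The authors deposited counts of read pairs per gene without normalization. Per the methods, reads were trimmed with cutadapt 3.4 in TrimGalore 0.6.7 and aligned with STAR 2.7.9a to GRCm39, and the file header names featureCounts 2.0.0 with Ensembl 105, reverse-strand counting and primary alignments. Pairs over exons of 2 genes on 1 strand stayed uncounted, and near-identical genes share reads. The authors also deposited log2 values, which equal the log2 of scaled counts plus 1 and were used only for that check.

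Groups came from the labels. The filter was a sum of 10 counts or more over all libraries, which left 21772 genes, 21601 of them with a symbol in GENCODE M39. edgeR 4.0.16 (R 4.3.3) with TMM fitted 1 quasi-likelihood model to the 18 libraries with a coefficient per group. Genes with an FDR below 0.05 (Benjamini-Hochberg over all genes tested) and a fold change above 1.3 were called. Mapkapk5 was also tested by exact permutation. Depth is the total count per library, and counting error weighs on genes with few counts. The members and lists were chosen with earlier results of these data known. Named were Mapkapk5 and Mapk6, up to 5 called genes with the smallest FDR of each interferon-stimulated list, every other called gene, the interferon pathway genes, called and most abundant members of other lists, and the 10 genes with the smallest interaction FDR, and any further gene is marked. The tests were first checked on simulated counts.

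The alternatives were DESeq2 1.42.0, its size factors in edgeR, filterByExpr, no filter, the replicate number as a block, only the libraries compared, the FDR criterion alone, and leaving out each library in turn. Promoter windows were read from GRCm39 at GENCODE M39 starts for 21600 genes, and Python 3.11.15 with pandas 2.3.3 and matplotlib 3.10.9 served for the rest. The proteomic and animal data were not used here. A member of the lists is counted but left unreported by name.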

Additional observations from a re-analysis of the deposited data

Results flagged for a closer look

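The effect of siMk5 differed between PA and BSA, by the interaction term of the edgeR fit over all genes, for 46 genes, of which 31 were listed interferon-stimulated genes. Among the genes named in the report, the interaction was -0.76 on the log2 scale for Parp12, -0.48 for Znfx1, -0.63 for Irgm1, -0.77 for Rnf213, -1.41 for Gbp2, -0.71 for Samd9l, -0.75 for Dtx3l, -0.64 for Eif2ak2, -0.93 for Parp14 and -0.61 for Stat2. Of the changed genes on no interferon-stimulated list, Lipg had -0.56, AW011738 -1.14 and Gm6548 -0.68, and they fell in PA and did not pass in BSA. Gja5 had 0.58, with a rise in PA. In each of these genes the siMk5 and siNtc libraries did not overlap in PA, and the genes were called from those same libraries.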

How the results depend on the processing

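The 119 changed genes became 111 with DESeq2 and 172 with no filter, the 94 lowered interferon-stimulated genes 89 and 102, and their counts stayed within 1.5 times under the alternatives run. The median of all genes moved by less than 0.1 on the log2 scale. The 13 other lowered genes became 41 with no filter, 28 with the FDR criterion alone and 6 to 16 when 1 library was left out. The 12 raised genes became 29, 31 and 7 to 18. The 46 genes with an interaction became 130 with no filter and 24 to 67 when 1 library was left out. The 224 genes that differed between siMk5 and siErk3 in PA ranged from 179 to 241. Mapkapk5, at a log2 fold change of -0.49, ranged from -0.64 to -0.32 and passed in none of these fits. DESeq2 made 108 of the 119 calls, and the cause of the differences was not tested. The correlations of same-numbered libraries were -0.54, 0.01 and -0.45 between siMk5 PA and siNtc PA, 0.56, 0.04 and 0.47 between siMk5 PA and siErk3 PA, and 0.27, 0.19 and 0.05 between siMk5 BSA and siNtc BSA. In none of these were all 3 above 0.1, so the numbers were not taken as pairing the libraries, and the fit with the replicate number as a block gave 121 changed genes, 119 of them shared. Signs changed only in genes that were not called, most of them near 0, and Ifnlr1, with at most 0.103 CPM in the PA libraries compared, had the widest range. When 1 library was left out, the log2 fold change ranged from -0.076 to 0.016 for Mapk6, -0.27 to 0.086 for Ptpn6, -3.21 to 0.34 for Ifnlr1, -0.048 to 0.016 for Socs3, -0.062 to 0.051 for Il10rb, -0.0042 to 0.093 for Traf6, -0.0038 to 0.090 for Tank, -0.039 to 0.039 for Tbk1, -0.12 to 0.13 for Ikbke, -0.085 to 0.083 for Nlrx1, -0.083 to 0.059 for Plin2, -0.24 to 0.013 for Hmox1, -0.0030 to 0.058 for Mylpf, -0.19 to 0.082 for Ttn, -0.015 to 0.014 for Atp5f1b, -0.10 to 0.045 for Junb, -0.027 to 0.035 for Inppl1, -0.00086 to 0.22 for Cd68 and -0.39 to 0.071 for Tek. With no filter Tbk1 had -0.0048 and Inppl1 -0.0013, and Atp5f1b had 0.0040 with filterByExpr and 0.0020 with only the libraries compared. Depth limits genes of few counts, such as Mapkapk5, Ifnb1 and St8sia4, and with 3 libraries a group the exact permutation test of 1 gene cannot go below p = 0.1.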

Other observations

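Of the 15 genes with an interaction that are on no interferon-stimulated list, 11 were not among the genes changed by siMk5 in PA. Only some of the 11 are described here, picked after their values were seen, so they do not stand for the set. Others were Dtx3 (interaction 0.40, FDR 0.00537), Slc49a3 (0.51, FDR 0.00844), Col7a1 (1.01, FDR 0.0101), Gm38403 (0.84, FDR 0.0101) and Gm2830 (0.52, FDR 0.0336). Trdn, encoding triadin, which anchors calsequestrin at the calcium release channel of the sarcoplasmic reticulum, had a log2 fold change of siMk5 against siNtc of -0.82 in BSA (FDR 0.00013, edgeR) and -0.14 in PA (FDR 0.902), and an interaction of 0.68 (FDR 0.0395). Mss51, a chromosome 14 gene for a mitochondrial protein of skeletal muscle, had -0.71 in BSA (FDR 0.00019), -0.06 in PA (FDR 0.983) and an interaction of 0.65 (FDR 0.0368). Lincmd1, a long noncoding RNA of muscle differentiation, had an interaction of 0.65 (FDR 0.0334) and Art1, an ADP-ribosyltransferase gene of muscle, of 0.69 (FDR 0.00815). Tor1aip1, which encodes a protein of the inner nuclear membrane, went the other way, with -0.37 in PA (FDR 2.8e-05, below the fold criterion), 0.04 in BSA (FDR 0.904) and an interaction of -0.41 (FDR 0.00632).

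Among myosin genes, Myh7, the slow type I heavy chain, named after its values were seen, was at 106.4, 108.9 and 110.0 CPM in siNtc PA and at 134.7, 137.2 and 140.9 CPM in siMk5 PA. Its groups did not overlap, and the log2 fold change of 0.34 (FDR 0.000243) was below the fold criterion, with 0.39 in BSA (FDR 0.000275).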
